A study of Mus musculus with 9 samples.

Results

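Interferons are secreted proteins that cells release on sensing viral nucleic acid or inflammation. Type I interferon signals through its receptor and JAK kinases to a complex that holds STAT2 and IRF9 and binds the interferon-stimulated response element (ISRE) in target promoters, whereas interferon-gamma acts mainly through the gamma-activated sequence (GAS). Both interferons are known inducers of MHC class I, and in brain the cells that respond include microglia, endothelial cells, astrocytes and neurons. The 9 genes examined here are a chosen list of such response genes, not a list taken from the measured values: the transcription factors Stat2, Irf9, Irf1 and Irf7 and the effectors Ifit1, Ifit3, Isg15, Bst2 and Ifi27. Of the 9, 8 had a row among the 14351 genes of the expression table. Isg15, which codes for a ubiquitin-like modifier, had none and its expression was not analysed here. The question was whether the higher MHC class I expression seen in the knockout came together with an interferon response.

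Bulk RNA sequencing was performed on the hypothalamus of male mice with a whole-body deletion of Clic1, a chloride intracellular channel protein, and of wild-type (WT) littermates, all on normal chow. Libraries KO2, KO4, KO6 and KO8 carry the knockout label and WT1, WT3, WT9 and WT11 the wild-type label. The ninth library is titled WT10 with a wild-type treatment label but described as K10; it was placed with the knockouts by that description, and its Clic1 level of 1.43 CPM (normalized counts per 1000000 reads) went against the wild-type label. Below it is named K10/WT10, so the comparison is of 5 knockout with 4 wild-type libraries, and each direction given rests in part on that placement. The labels give the strain as C57b/6J while the methods describe the knockout on a CD-1 background, and a tissue note in the labels names fat. None of 6 adipocyte markers had a row and all 15 of 15 hypothalamic neuron markers did. Ages were not given in the sources used here.

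Clic1 was 0.733 to 1.93 CPM in the knockout libraries and 3.58 to 5.52 in the wild type, with a log2 fold change of -1.80 (SE 0.27, limma adjusted p = 0.0153). Estimated depths ran from 5.45 to 20.8 M reads, the deepest being K10/WT10. That library also stood apart over all genes, with a median Spearman correlation to the others of 0.974 against 0.990 to 0.993 for the other 8, and it was the highest library for 30.1% of genes. WT9 stood apart in another way, with raised interferon-gamma response genes, and results are therefore given with and without both libraries. Since whole hypothalamus was sequenced, fewer cells of a type and less RNA per cell cannot be told apart.

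The promoter sequences of the response genes are shown because they carry the elements through which these genes are known to be read by interferon signalling. Windows from 250 bases before to 50 bases after the RefSeq start site (GRCm38.p6) were searched on both strands for the ISRE core GAAANNGAAA and the GAS core TTCNNNGAA. A window was held for 8 of the 9 genes, all but Ifi27, and 5 of these 8 had an ISRE match and 2 a GAS match. For comparison, 3.99% of 27025 genes had an ISRE match and 9.55% a GAS match in a window of this length. Matches are in capitals below, read on the strand of the gene. TTTCNNTTTC is the same ISRE core read on the opposite strand.

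The Stat2 match lies at chr10:128270266-128270295 (plus strand), the Irf1 match at chr11:53769914-53769942 (plus), the Ifit1 pair at chr19:34640775-34640823 (plus), the Ifit3 pair at chr19:34583363-34583426 (plus), the overlapping Isg15 matches at chr4:156200865-156200906 (minus) and those of Bst2 at chr8:71537577-71537618 (minus). All lie upstream of the start site.
Stat2: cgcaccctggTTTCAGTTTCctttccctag
Irf1: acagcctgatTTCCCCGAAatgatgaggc
Ifit1: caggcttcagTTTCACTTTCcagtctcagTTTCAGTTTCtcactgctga
Ifit3: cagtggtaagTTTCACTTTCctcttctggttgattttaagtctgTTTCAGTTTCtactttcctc
Isg15: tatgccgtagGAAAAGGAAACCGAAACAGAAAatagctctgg
Bst2: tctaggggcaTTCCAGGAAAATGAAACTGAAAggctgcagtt

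The Irf1 stretch holds a GAS match and no ISRE match, the Bst2 stretch holds a GAS match that overlaps an ISRE match, and the others hold ISRE matches alone. Isg15 had 3 overlapping ISRE matches, and Ifit1, Ifit3 and Bst2 had 2 each. No match of either core was found in the windows of Irf9 and Irf7, which says only that these letters are absent there. A match is a string of letters and not a measured binding site.

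None of the 8 response genes differed between Clic1 KO and WT at an adjusted p under 0.05 (limma with an intensity trend on log2(CPM + 0.1), Benjamini-Hochberg adjustment over all genes), a threshold that 41 of 14351 genes (0.286%) passed. At an unadjusted p under 0.05 there were 2, Ifit1 and Ifit3, both higher in KO, where 6.5% of all genes passed. The groups did not overlap for 1 of the 8, Ifit1, which was higher in every knockout library, as was the case for 1.67% of all genes. Log2 fold changes of the 8 ran from -0.58 to 0.75 with a median of 0.07, beside a median of 0.00089 over all genes. Of the 8, 6 were above 0, beside 7229 of all 14351 genes. The 8 were expressed at low to moderate levels, and the values by library follow in the order of their roles.

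**Figure D1:**
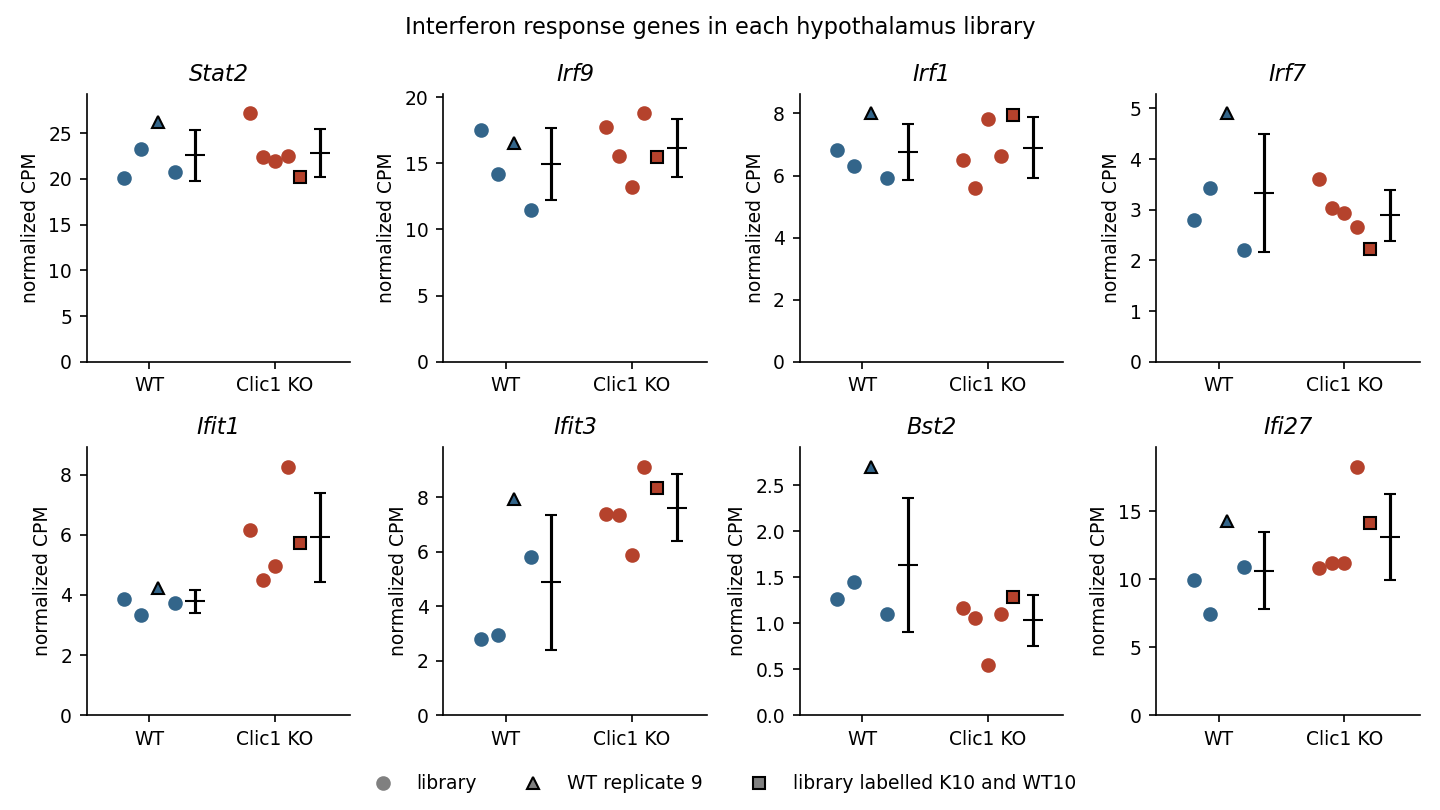
Normalized CPM (y axis, from 0) of the 8 measured interferon response genes in each hypothalamus library, by genotype; bars are the mean ± SD of 4 WT and 5 KO libraries, the triangle is WT9 and the square K10/WT10. Only for Ifit1 do all knockout points lie above all wild-type points, and WT9 is the highest library for Irf1, Irf7 and Bst2.

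Stat2 and Irf9 code for the DNA-binding partners of the type I interferon complex. Stat2 (chr10:128270559-128292849) was 27.2, 22.4, 22, 22.5 and 20.2 CPM in KO2, KO4, KO6, KO8 and K10/WT10, and 20.1, 23.3, 26.2 and 20.8 in WT1, WT3, WT9 and WT11. The groups overlapped over nearly their whole range. The log2 fold change was 0.02 (SE 0.11, adjusted p = 0.987, limma), with a 95% interval of -0.23 to 0.26. Irf9 (chr14:55603571-55610030) was 17.8, 15.6, 13.2, 18.8 and 15.5 CPM in the knockout libraries in the same order, and 17.5, 14.2, 16.5 and 11.4 in the wild type. WT11 was the lowest and KO8 the highest, and 3 wild-type values lay within the knockout range. Irf9 had a log2 fold change of 0.12 (SE 0.15, interval -0.19 to 0.44, adjusted p = 0.897, limma). The intervals of Stat2 and Irf9 thus reached up to 0.26 and 0.44 on the log2 scale.

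Irf1 and Irf7 code for inducible transcription factors, Irf1 mainly downstream of interferon-gamma and Irf7 in the amplification of type I interferon. Irf1 (chr11:53770014-53778374) was 6.49, 5.59, 7.82, 6.64 and 7.94 CPM in the knockout libraries, and 6.83, 6.31, 8 and 5.92 in WT1, WT3, WT9 and WT11. The highest library was WT9 and the lowest KO4, and the log2 fold change was 0.02 (SE 0.15, interval -0.30 to 0.35, adjusted p = 0.985, limma). Its direction was not stable, being below 0 without K10/WT10 (-0.029). Irf7 (chr7:141262706-141266481) was 3.61, 3.03, 2.93, 2.66 and 2.23 CPM in the knockout libraries, and 2.80, 3.42, 4.90 and 2.20 in the wild type. WT9 was again the highest, and the remaining wild-type values spanned those of the knockouts apart from KO2. The log2 fold change of -0.16 (SE 0.24, interval -0.68 to 0.37, adjusted p = 0.921, limma) became 0.044 without WT9.

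Ifit1 and Ifit3 code for interferon-induced proteins with tetratricopeptide repeats, which bind viral RNA and restrict its translation, and both carry paired ISRE matches (printed above). Ifit1 (chr19:34640871-34650009) was 6.16, 4.48, 4.95, 8.26 and 5.71 CPM in KO2, KO4, KO6, KO8 and K10/WT10, and 3.85, 3.32, 4.23 and 3.72 in WT1, WT3, WT9 and WT11. The lowest knockout library lay just above the highest wild-type library, and KO8 was the highest by a wide margin. The knockouts averaged 5.91 ± 1.47 CPM (SD, n = 5) and the wild type 3.78 ± 0.378 CPM (SD, n = 4), a log2 fold change of 0.61 (SE 0.19, interval 0.20 to 1.01). The adjusted p was 0.506 (limma), and the two-sided exact permutation test on this gene alone gave p = 0.0159, the smallest that 5 against 4 libraries allow. Without K10/WT10 the log2 fold change was 0.61 (adjusted p = 0.27, limma), without WT9 it was 0.66 (adjusted p = 0.655, limma), and with K10/WT10 counted as wild type it was 0.49. These values rest on about 27 to 116 reads per library.

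Ifit3 (chr19:34583531-34588731) was 7.39, 7.37, 5.88, 9.13 and 8.34 CPM in the knockout libraries, and 2.81, 2.94, 7.94 and 5.82 in WT1, WT3, WT9 and WT11. The wild-type libraries were split, with WT1 and WT3 low, WT11 just under the lowest knockout and WT9 inside the knockout range. The log2 fold change was 0.75 (SE 0.29, interval 0.13 to 1.38, adjusted p = 0.684, limma), and the exact permutation p was 0.0952. WT9 was the only library that made the groups overlap. With WT9 left out, Ifit3 differed by 1.03 on the log2 scale (adjusted p = 0.304, limma), and every knockout library was above the other 3 wild-type libraries.

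Ifit3 has a near-identical copy, Ifit3b in the same cluster and on the same strand, and the transcripts shared 97.8% of 1700 aligned bases, so that reads could be divided between them by the counting. The upstream stretch with the ISRE pair was the same in both over all 64 bases (Ifit3b, chr19:34607759-34607822).
Ifit3b: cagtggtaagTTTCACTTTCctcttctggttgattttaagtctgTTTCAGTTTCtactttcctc

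Ifit3b was 9.99, 9.50, 10.1, 9.79 and 10.6 CPM in the knockout libraries, and 5.96, 5.35, 9.46 and 8.37 in the wild type. As for Ifit3, WT1 and WT3 were the low wild-type libraries and WT9 the highest of the 4, and its groups did not overlap, though WT9 came close to KO4. Its log2 fold change was 0.49 (SE 0.17, adjusted p = 0.589, limma). Summed, the pair was 15.9 to 18.9 CPM in KO and 8.29 to 17.4 in WT, with a log2 fold change of 0.60 (SE 0.20, adjusted p = 0.557, limma) and an exact permutation p of 0.0635. Ifit3 took 36.9 to 48.3% of the pair in KO and 32.1 to 45.6% in WT. The other Ifit genes of the same cluster, Ifit2, Ifit1bl1 and Ifit1bl2, overlapped between groups, and Ifit2, the most abundant of them, was 21.2 to 26.4 CPM in KO and 23.2 to 25.4 in WT.

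Bst2 codes for tetherin, which holds budding virus at the cell surface, and Ifi27 for a small mitochondrial and nuclear membrane protein. Bst2 (chr8:71534255-71537456) was 1.16, 1.05, 0.549, 1.09 and 1.29 CPM in the knockout libraries, and 1.27, 1.45, 2.70 and 1.10 in the wild type. It was the gene with the most negative difference, -0.58 on the log2 scale (SE 0.34, interval -1.31 to 0.15, adjusted p = 0.825, limma), and the groups overlapped. WT9 was highest, and the value was -0.32 without it. About 3 to 27 reads per library lay behind these levels. Ifi27 (chr12:103434211-103440239) was 10.8, 11.2, 11.2, 18.3 and 14.1 CPM in the knockout libraries, and 9.95, 7.46, 14.3 and 10.9 in the wild type. The log2 fold change was 0.31 (SE 0.20, interval -0.13 to 0.75, adjusted p = 0.835, limma), and WT9 lay above 4 of the 5 knockouts.

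**Figure D2:**
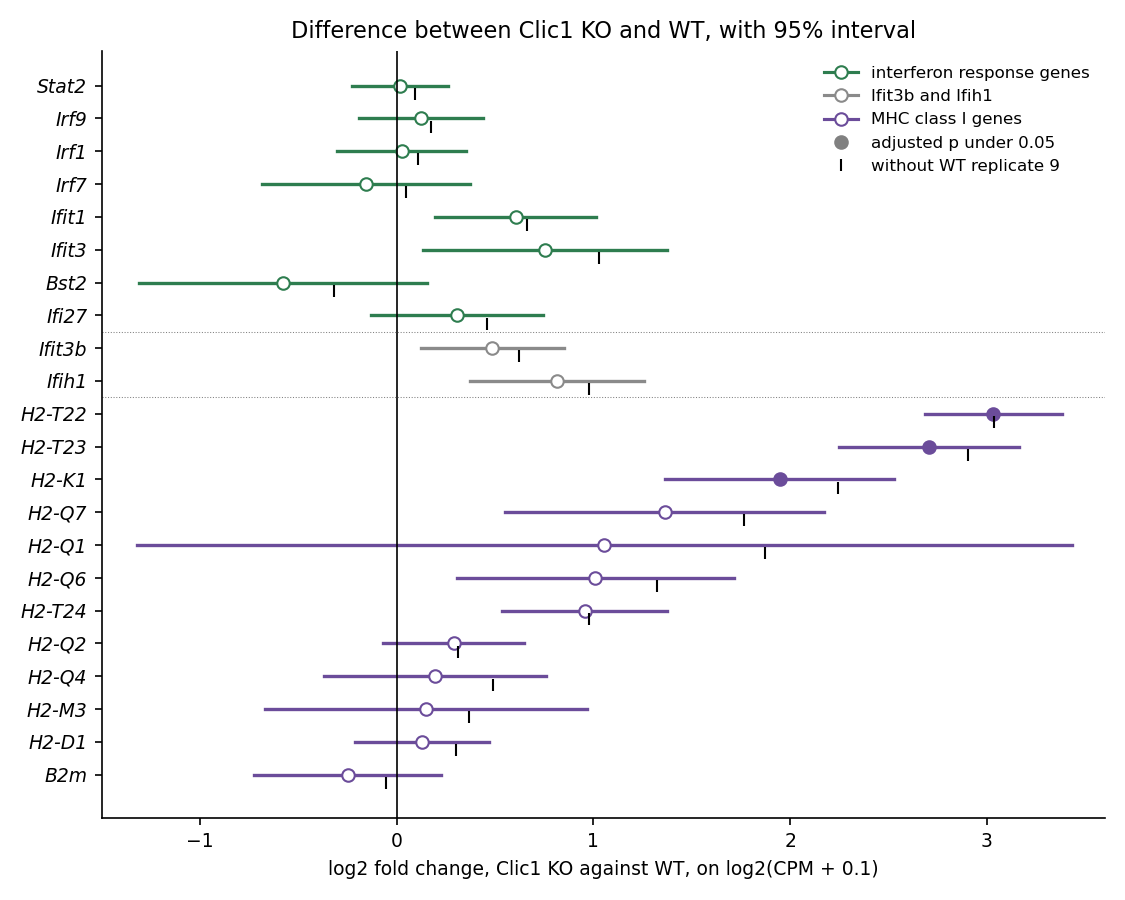
Log2 fold change of Clic1 KO against WT on log2(CPM + 0.1) (x axis) with its 95% interval for the 8 interferon response genes, for Ifit3b and Ifih1, and for 12 MHC class I genes; filled points passed the adjusted threshold and black ticks are the values without WT9. The 3 filled points are H2-T22, H2-T23 and H2-K1, from 1.95 to 3.03, whereas the response genes lie between -0.58 and 0.75.

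The 8 genes did not share a single ranking of the libraries. KO8 was the highest library for 4 of them (Irf9, Ifit1, Ifit3, Ifi27), WT9 for 3 (Irf1, Irf7, Bst2) and KO2 for Stat2. The lowest library was WT1 for Stat2 and Ifit3, WT3 for Ifit1 and Ifi27, WT11 for Irf9 and Irf7, KO4 for Irf1 and KO6 for Bst2. Averaged over the 8 genes after standardising each over the 9 libraries, WT9 had the highest level (1.07 SD units) and the other 3 wild-type libraries the lowest (-0.47 in WT1, -0.59 in WT3 and -0.85 in WT11). The knockouts lay between, from -0.29 in KO6 to 0.66 in KO8. The genes with the most similar profile over the 9 libraries, by the root mean square distance between standardised levels among 14262 genes, were Celsr1 (0.33), Rhoc (0.36), Clec2d (0.39), Urb1 (0.42) and Emg1 (0.42).

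Per kilobase of exon, Ifi27 had the highest level of the 8 at 8.20 ± 2.13 CPM per kb (SD, n = 9), and its lowest library was above the highest of Stat2. It was followed by Stat2 (3.84 ± 0.422), Ifit3 (3.67 ± 1.297), Irf9 (2.90 ± 0.438), Ifit1 (1.87 ± 0.582), Irf1 (1.72 ± 0.224), Bst2 (1.43 ± 0.644) and Irf7 (0.817 ± 0.219). Apart from the step below Ifi27, each gene overlapped the next in its range over libraries, so that neighbours in this order were not apart beyond their spread.

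In the wider pathway, 116 further genes with a row were examined, from receptors to antigen processing. None passed the adjusted threshold in either direction with limma, and 6 passed at an unadjusted p under 0.05, all higher in KO, where 6.5% of all genes passed in either direction. Their median log2 fold change was 0.04, and 76 of the 116 were above 0, beside 7229 of all 14351 genes. No test of the 116 as a set was run. The groups did not overlap for 2 of the 116, Ifit3b and Gbp6, both higher in KO, beside 1.67% of all genes in that direction. Listed genes without a row could not be compared. Of 76 other effectors listed, 49 had a row, and those without one include Mx1, Mx2, Oas1a, Oas2, Oas3, Cxcl9 and Cxcl10.

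Of the ligands, none of the 11 interferon genes listed had a row. Genes low in most libraries had been filtered out by the authors, so an interferon expressed in few libraries could not be seen. The 10 receptor and JAK-STAT genes had a median of 0.02 on the log2 scale, with none passing even the unadjusted threshold. Jak1, the kinase common to both receptors and the most abundant of them, was 193 CPM in KO and 181 in WT on average (log2 fold change 0.08, SE 0.09), with K10/WT10 the highest at 237 CPM and a log2 fold change of 0.0021 without it. Among the other 5 interferon regulatory factors, Irf2 was the most abundant (33.9 CPM in KO, 33.3 in WT), and Irf3, the factor activated by nucleic acid sensors, was the only gene past the unadjusted threshold (log2 fold change 0.32, SE 0.14, adjusted p = 0.755, limma). The 9 inhibitors, of which Pias1 was the most abundant (105 CPM in KO, 108 in WT), gave a median of 0.01 and none past the unadjusted threshold. Usp18, which restrains the type I receptor and is itself induced by interferon, had a log2 fold change of 0.43 with an SE of 0.31.

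Of the 17 sensors and adaptors, Traf3 was the most abundant (114 CPM in KO, 107 in WT) and Ifih1, the cytosolic sensor MDA5, was singled out after its values were seen as having the smallest adjusted p of the 116. Ifih1 was 9.27, 8.96, 7.14, 10.6 and 10.2 CPM in the knockout libraries, and 5.97, 4.56, 7.30 and 3.58 in the wild type. WT9 was the only wild-type library within the knockout range. The log2 fold change was 0.81 (SE 0.20, adjusted p = 0.259, limma), with an exact permutation p of 0.0317. Without K10/WT10 and WT9 together, Ifih1 passed the adjusted threshold (log2 fold change 0.94, adjusted p = 0.0293, limma), as did Oasl2 (0.75, adjusted p = 0.039), a 2'-5'-oligoadenylate synthetase-like gene. In that setting 137 genes passed, beside 41 with all libraries. It was added after the data were seen and drops WT9, the highest library for Oasl2 and the highest wild-type library for Ifih1. These calls thus rest in part on a choice made from interferon gene values. With weights estimated for each library, Ifih1 was again past the adjusted threshold (0.80, adjusted p = 0.0447, limma), where 135 genes passed.

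Among the 49 other effectors, Adar, an RNA-editing deaminase, was the most abundant (239 CPM in KO, 232 in WT). At an unadjusted p under 0.05 (limma) 3 of the 49 passed, beside 6.5% of all genes: Ifit3b, Ifi203 (log2 fold change 0.88, SE 0.33) and Slfn8 (1.74, SE 0.71). Slfn8 averaged only 1.33 CPM in KO and 0.574 in WT and was at 0 in WT9, so its value depends on the pseudocount in that library and was 1.07 without it. The 14 antigen processing genes, which include the peptide transporter and the immunoproteasome, had a median of 0.06 and none past the unadjusted threshold, and Calr, a peptide-loading chaperone, was 272 CPM in KO and 263 in WT. The direction for Calr rests on K10/WT10 at 377 CPM, the log2 fold change being 0.03 with it and -0.09 without it.

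**Figure D3:**
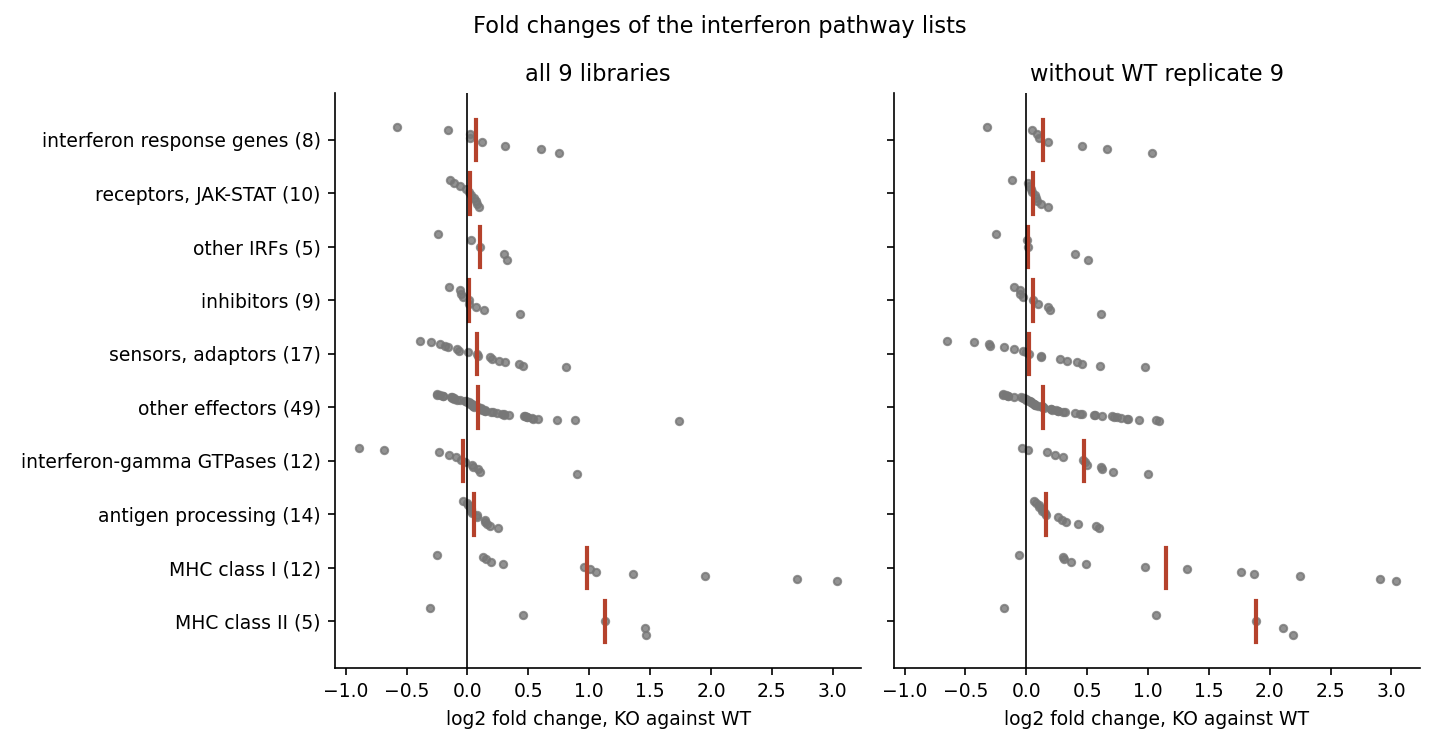
Log2 fold change of Clic1 KO against WT (x axis) of each gene (grey point) in 10 lists, with the list's median as a red bar and the number of genes in brackets, over all 9 libraries (left) and without WT9 (right). The medians of the interferon lists lie close to 0 on the left, from -0.04 for the GTPases to 0.10 for the other IRFs, and that of the GTPases is 0.47 on the right. The medians of MHC class I and class II are 0.98 and 1.13 on the left and 1.15 and 1.89 on the right. WT9 was singled out from the GTPases after the values were seen.

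In the same libraries, 3 of 12 MHC class I genes were past the adjusted threshold, all higher in KO: H2-T22 (log2 fold change 3.03, SE 0.16), H2-T23 (2.70, SE 0.21) and H2-K1 (1.95, SE 0.27). Of all genes, 0.286% passed that threshold in either direction. The groups did not overlap for these 3 and for H2-T24 (0.96, SE 0.19, adjusted p = 0.0904, limma), all higher in KO, beside 1.67% of all genes in that direction. H2-Q7 (1.36), H2-Q1 (1.06), H2-Q6 (1.01), H2-Q2 (0.29), H2-Q4 (0.19), H2-M3 (0.15) and H2-D1 (0.13) did not pass. B2m, the light chain that every class I molecule needs, was -0.25 (SE 0.22, adjusted p = 0.866, limma). All 11 heavy chain genes lie on chromosome 17, within 2.22 Mb of Clic1, and B2m lies on chromosome 2. None of the 8 response genes lies on chromosome 17. The 5 MHC class II genes measured, which present peptides from outside the cell, had none past the adjusted threshold with limma. At an unadjusted p under 0.05 (limma) there were 2, H2-Aa (1.46, SE 0.65) and H2-Eb1 (1.47, SE 0.59), where 6.5% of all genes passed. Class I heavy chains are close copies of each other, so the split of reads among them is uncertain. Reads were aligned to GRCm38.p6, while the methods put the knockout on a CD-1 background. The part of sequence differences between strains in the values of these genes near Clic1 was not tested.

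H2-T22 and H2-T23 hold an ISRE match in their windows, as does B2m, and H2-K1 and H2-D1 do not. The H2-T22 match, shown because this gene had the largest class I difference, lies at chr17:36042914-36042943 (minus strand) and has the same 10 bases as the first match of Ifit1 and Ifit3.
H2-T22: attggcttagTTTCACTTTCgaatccccaa

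Within the wild-type group, WT9 had a pattern of interferon-gamma response genes that was noticed only after the values were seen. These are the guanylate-binding proteins and immunity-related GTPases, which attack the vacuoles of intracellular pathogens. WT9 was the highest of the 9 libraries for 11 of the 12 measured (all but Gbp6), while it was the highest for 10.9% of all genes. For the same 11 it was at least 2-fold above the median of the other 8 libraries, as it was for 111 (0.778%) of the 14270 genes that averaged 1 CPM or more.

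Gbp4 was 36.2 CPM in WT9, against 2.53, 3.11 and 4.55 in WT1, WT3 and WT11 and 2.18 to 5.79 in the knockouts. Tgtp2 was 13.1 CPM in WT9 and 0.330 to 2.27 in the other 8 libraries. Igtp was 10.8 CPM in WT9, against 2.08, 2.07 and 2.07 in the other wild-type libraries and 2.32 to 3.82 in the knockouts. Gbp7, the most abundant of the 12, was 17.9 CPM in WT9 and 7.26 to 12.7 elsewhere. Igtp overlaps Irgm2 and Gbp4 overlaps Gbp9 on the same strand, so the split of reads within each of these pairs is uncertain. WT9 was thus far outside both groups for Gbp4, Tgtp2 and Igtp.

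The response genes followed WT9 only in part. Bst2 was 2.39-fold over the median of the other 8 libraries in WT9, Irf7 1.71-fold, Ifi27 1.297-fold, Irf1 1.22-fold and Ifit3 1.20-fold, whereas Ifit1 was 0.898-fold. MHC class II genes were also raised in WT9, with 4 of 5 at least 2-fold above the median of the others, and Cd74, the invariant chain, was 22.8 CPM there and 3.44 to 14.8 elsewhere. WT9 was however the highest library for only 2 of the 5, and a knockout exceeded it for H2-Aa (3.10 CPM in WT9, 4.74 in KO4), H2-Ab1 (6.20 in WT9, 6.72 in KO8) and H2-Eb1 (3.90 in WT9, 4.09 in KO4). Among class I genes, B2m was 98 CPM in WT9 against 39.0 to 71.6, while H2-T22 was 1.69 CPM in WT9, within the 1.29 to 2.17 of the other wild-type libraries. The other called class I genes were higher in WT9 than in the other wild-type libraries, H2-K1 at 12.6 CPM against 4.13 to 6.69 and H2-T23 at 1.72 CPM against at most 1.01, and both stayed below every knockout library.

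**Figure D4:**
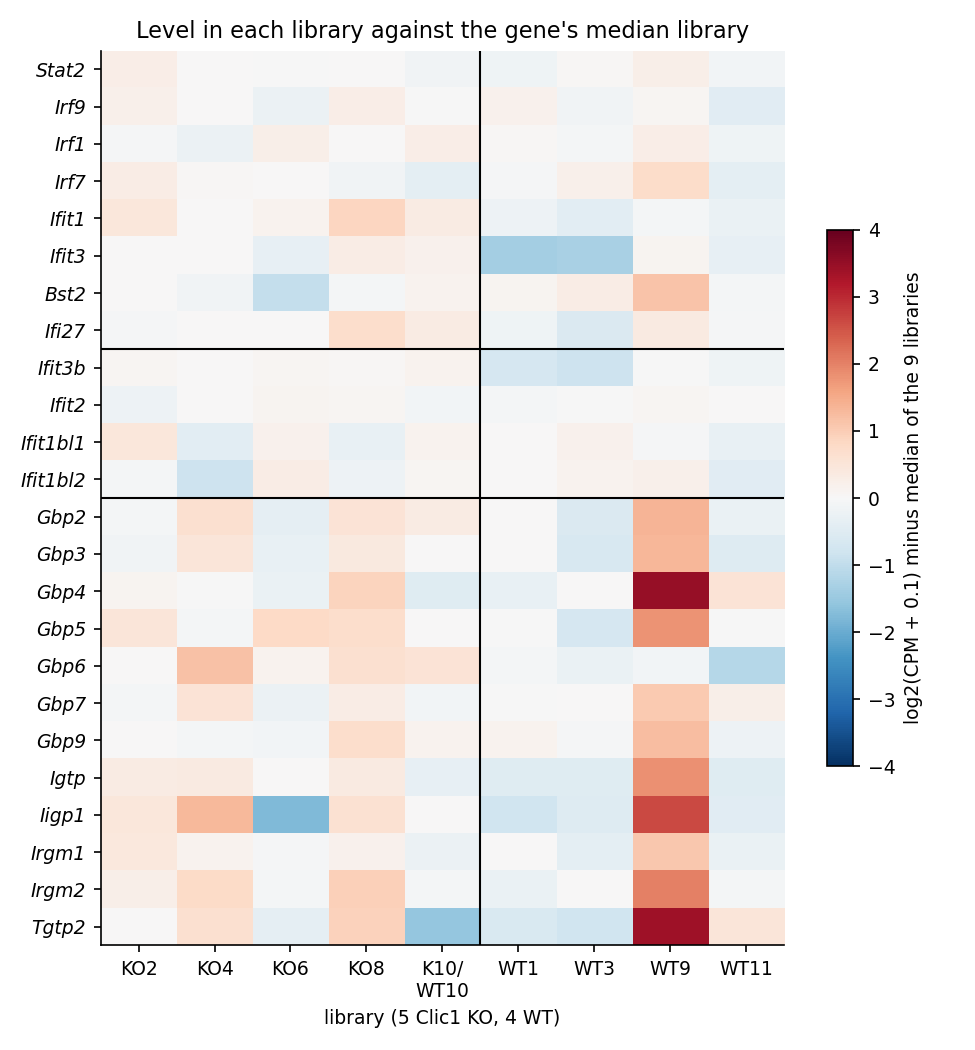
Level of the 8 response genes (top), 4 further Ifit genes (middle) and 12 interferon-gamma GTPases (bottom) in each library, as log2(CPM + 0.1) minus the gene's median over the 9 libraries (colour). WT9 is high across the GTPases except Gbp6, and WT1 and WT3 are low for Ifit3 and Ifit3b.

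Promoters of these GTPases are shown because they set the 2 elements side by side. A window was held for 8 of the 12 measured, all 8 held an ISRE match and 5 of them also a GAS match. The stretches lie at chr11:58199501-58199541 (plus strand) for Igtp, chr11:49064263-49064303 (minus) for Tgtp2, chr11:48871425-48871460 (minus) for Irgm1 and chr3:142620594-142620623 (plus) for Gbp2.
Igtp: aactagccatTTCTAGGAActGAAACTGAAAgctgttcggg
Tgtp2: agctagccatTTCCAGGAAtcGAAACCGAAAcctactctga
Irgm1: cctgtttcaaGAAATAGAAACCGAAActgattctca
Gbp2: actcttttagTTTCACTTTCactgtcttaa

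In Igtp and Tgtp2 a GAS match stands just before an ISRE match, whereas the windows of Irgm1 and Gbp2 hold ISRE matches alone. All 4 genes were raised in WT9, by 4.09-fold, 12.9-fold, 2.17-fold and 2.69-fold over the median of the other libraries in that order, so genes with and without a GAS match were among them.

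Markers of other cell types were set beside these values. The summed level of 13 microglia markers was 375 CPM in WT9 and 292 to 307 in the other wild-type libraries, against 267 to 319 in the knockouts. The 8 endothelial markers summed to 211 to 228 CPM in WT and 225 to 255 in KO. For border macrophages, 3 of 6 markers had a row and summed to 5.79 to 10.6 CPM in WT and 6.59 to 15.9 in KO. None of the 8 T cell and NK cell markers and none of the 5 neutrophil and monocyte markers had a row. The authors' filter removed genes that were low in most libraries, so a marker raised in WT9 alone would have no row. The missing rows therefore cannot show whether such cells were present in WT9. The part of any cell type in these levels was not tested.

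Without WT9, none of the 8 response genes passed the adjusted threshold (0.167% of all genes did), 3 passed at an unadjusted p under 0.05 (Ifit1, Ifit3 and Ifi27, all higher in KO, where 3.55% of all genes passed in that direction), and 2 had groups without overlap (Ifit1 and Ifit3, against 2.99% of all genes higher in KO). Their summed level was then 68.5 to 87.4 CPM in KO and 61.9 to 65.1 in WT, with WT9 itself at 84.8. WT9 was singled out after its interferon-gamma response genes were seen, and it had the highest average level of the 8. Leaving it out therefore favours higher KO values for interferon genes by the choice itself. The shares of all genes carry no such choice, so the counts without WT9 cannot be read as an excess over them. Of the 116 pathway genes none was called and 16 passed the unadjusted threshold, all higher in KO, beside 3.55% of all genes in that direction. The groups did not overlap for 10 of the 116, all higher in KO, beside 2.99% of all genes. The same limit from the choice of WT9 holds for these counts. Of the lists in the 116, the median of the GTPases moved most, from a median log2 fold change of -0.04 to 0.47. Outside the 116, the median of the 5 MHC class II genes was 1.13 with all libraries and 1.89 without WT9. None of these 5 was called without WT9, and 4 passed the unadjusted threshold, all higher in KO, beside 3.55% of all genes in that direction. WT9 was high for class II genes as well, so the same limit holds for them. The 3 class I calls were the same genes, and the direction of Stat2, Irf9, Irf1, Ifit1, Ifit3, Bst2 and Ifi27 was the same, while that of Irf7 turned.

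Without K10/WT10, none of the 8 was called either, and Ifit1 and Ifit3 had log2 fold changes of 0.61 and 0.72 (adjusted p = 0.27 and 0.361, limma). Without K10/WT10 and WT9 together, Ifit1 was 0.66 (adjusted p = 0.242, limma) and Ifit3 0.99 (adjusted p = 0.0724, limma). That was the smallest adjusted p of any of the 8 in any alternative. With library weights Ifit3 was 0.93 (adjusted p = 0.09998, limma). Taken over all 9 libraries, the groups were without overlap in either direction for 3.41% of genes, and Ifit1 was the only response gene among them.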

How the data were processed

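Values were taken from the table of the 9 hypothalamus libraries that the authors deposited. Per the methods and the processing notes in the labels, reads were checked with FastQC 0.11.8, trimmed with Trimmomatic 0.38, aligned to GRCm38.p6 with STAR 2.5.1a and counted with RSEM 1.3.0. Lowly expressed genes, those that did not reach the authors' CPM cut-off in a minimum number of samples, were filtered out. The deposited values are a normalized signal per gene, CPM (counts per 1000000 reads) scaled by edgeR's TMM, with no error of their own, and strand use in counting was not given in the sources used here. The authors' fold changes, p-values and test statistics were not used. 1 column matched no sample and was left out. Gene symbols, deposited with their Ensembl identifiers, are the other information used from the deposited files.

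Since the values are not raw counts, limma 3.58.1 (lmFit, eBayes with trend) was run on log2(CPM + 0.1) with genotype as the only term, over all 14351 genes, with Benjamini-Hochberg adjustment and a threshold of 0.05. A fold change on this scale understates the change of low genes. Exact permutation tests over libraries were two-sided. The script was tested on simulated data. Depth was estimated from the steps of the low values (81.3 to 86.6% were whole reads within 0.03), so reads per gene are estimates. Replicates are single mice as far as the labels say; where libraries share more than the labels state, p-values measure only the spread between libraries. Gene coordinates and exon lengths come from GENCODE M21 (GRCm38), and promoter windows from RefSeq (GRCm38.p6). Transcript copies were searched with blastn 2.17.0. The genes and lists were chosen with earlier results of these data known. Named were all members, Clic1, pathway genes past the threshold, the most abundant gene of each list, class I genes of at least 1 CPM in a group, near-identical copies and the 5 genes of most similar profile; others were named after their values were seen (Ifih1, Oasl2, Irf3, Usp18, Ifi203, Slfn8, Gbp4, Tgtp2, Igtp, the other Ifit genes and the GTPase promoters). Alternatives were other pseudocounts (0.5 and 1), a mean of at least 5 CPM, other scalings, other variance settings, library weights, the other placement of K10/WT10, leaving out each library, summing Ifit3 with Ifit3b, and a threshold of 0.1; leaving out K10/WT10 and WT9 together was added after seeing the data.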

Additional observations from a re-analysis of the deposited data

Results flagged for a closer look

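Among 72 groups of values tested for a library far from the rest (the 8 response genes, Clic1, the GTPases, the class I genes, Ifit3b, Ifih1 and Oasl2, in each genotype), 12 had one, where chance gives about 1 in 20 groups, or 3.6 of 72. The groups are not independent, since the same libraries recur in all of them and some genes share reads. Ifih1 and Oasl2 were also named, and the pattern of WT9 in the GTPases noticed, after the values were seen. The chance count is therefore only a rough guide. In 10 of the 12 it was WT9, which was high for Gbp4 (36.2 CPM, the other wild-type libraries 2.53 to 4.55), Iigp1 (13.7, others 1.18 to 1.52), Tgtp2 (13.1, others 0.628 to 1.65), Igtp (10.8, others 2.07 to 2.08), Irgm2 (14.4, others 2.89 to 3.52), Irgm1 (17.0, others 6.11 to 7.96), Gbp5 (8.50, others 1.45 to 2.35), Gbp9 (14.1, others 5.10 to 6.42), H2-Q1 (2.71, others 0 to 0.417) and H2-Q7 (3.89, others 1.04 to 1.52). In the knockout group, H2-Q7 was 2.38 CPM in KO6 and 4.66 to 5.30 in the others, and Gbp9 was 9.54 CPM in KO8 and 5.49 to 6.43 in the others. K10/WT10 was the far library in 0 of the 72. None of the 8 response genes had a far library in either group by this measure. The part of any cause in these values was not tested.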

How the results depend on the processing

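The count of response genes past the threshold was 0 in all 21 alternatives, and the median log2 fold change of the 8 ran from -0.01 to 0.16. Over all genes the count of 41 became 27 with a mean of at least 5 CPM, 135 with library weights, 5 with K10/WT10 as wild type and 137 without K10/WT10 and WT9 together, and ran from 18 to 87 as each library was left out. For class I the count of 3 became 6 with library weights, 0 with K10/WT10 as wild type and 6 without both libraries, and ran from 2 to 4 as each library was left out, H2-K1 losing its call without WT3 (adjusted p = 0.0547, limma); for the 116 pathway genes it became 1 with library weights and 2 without both. Clic1 lost its call with K10/WT10 as wild type (-1.51, adjusted p = 0.501, limma) and when WT1, WT3 or WT9 was left out (log2 fold change -1.94 to -1.62 over the fits without a library). Of 157 values of single response genes under alternatives, 144 kept their direction and 13 turned: Irf1 with library weights (-0.028) and with K10/WT10 as wild type (-0.076), Irf7 with library weights (0.024), with K10/WT10 as wild type (0.031) and without K10/WT10 and WT9 together (0.13), and otherwise fits without a library, which ran from -0.036 to 0.11 for Irf1, from -0.33 to 0.044 for Irf7 and from -0.047 to 0.090 for Stat2. Why was not tested. Neither rescaling moved the median of all genes by 0.01 on the log2 scale. The knockout and wild-type labels share no replicate numbers, and the methods do not give the litter of each library, so no paired analysis was made. Bst2, at 3 to 27 estimated reads, was the least precise.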
